A study of Homo sapiens with 40 samples.

Results

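The insulin and insulin-like growth factor (IGF) pathway was examined at 9 genes in EndoC-βH3 cells, senescent or not: the receptors INSR and IGF1R, the adaptors IRS1 and IRS2, the PI3K subunit PIK3R1, the kinase AKT2, and the transcription factors FOXO1, FOXO3 and FOXO6. The genes were chosen by name. Their peaks were all those within 2 kb of a protein-coding start site in GENCODE release 44, in the gene body, or nearest to the gene and within 400 kb of a start site. This gave 124 of 51489 peaks of H3K27ac, an acetylated histone residue found at promoters and enhancers in use, and 71 of 51457 peaks of CTCF, which binds DNA and anchors loops of chromatin.

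On hg38, FOXO1 lies at chr13:40555667-40666641 on the minus strand, FOXO3 at chr6:108559835-108684774 and FOXO6 at chr1:41361922-41383590, both on the plus strand. INSR lies at chr19:7112255-7294414 (minus) and IGF1R at chr15:98648539-98964530 (plus). The adaptors IRS1 and IRS2 are at chr2:226731312-226799820 and chr13:109752695-109786583 (minus). PIK3R1, with 24 annotated start sites, is at chr5:68215740-68301821 (plus) and AKT2, with 23, at chr19:40230317-40285536 (minus).

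When insulin or IGF binds its receptor, the receptor phosphorylates the IRS adaptors, which recruit the lipid kinase PI3K, and the phospholipid it makes activates AKT. AKT phosphorylates the FOXO factors and keeps them out of the nucleus, so that FOXO target genes are on when signalling is low. Beta cells secrete insulin and also respond to it, and FOXO1 is the family member best known for controlling their identity and stress resistance.

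EndoC-βH3 is a beta-like line derived from human fetal pancreas, immortalized with hTERT and SV40 large T antigen and carrying a tamoxifen-inducible Cre, and the labels call it WT in both groups. The senescent group was treated for 3 weeks with 4-hydroxytamoxifen, 1 mM by the labels, which makes the Cre excise the immortalizing genes, and the non-senescent group was the control that keeps them. H3K27ac and CTCF were each measured in 3 senescent and 3 non-senescent libraries, and H3K4me1 and Rb in 2 of each, among 40 libraries with their inputs. Nothing in the labels says that these came from separate cultures, so the p-values measure the spread between these samples, which may be technical. In such bulk libraries more cells with a mark and more of the mark per cell cannot be told apart.

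The tables give 1 mean, 1 fold change and 1 standard error per peak, with no value per library and no total count per library, so the libraries of a group could not be compared with each other. Levels are means over the 6 libraries in normalized read counts, with a median of 119 per H3K27ac peak and 58.6 per CTCF peak. Where a level is given for each group, it was solved from that mean and the fold change for groups of equal size. Fold changes are given as log2 values of the senescent over the non-senescent level, with the standard error (SE, n = 3 and 3) and the adjusted p of DESeq2's Wald test. An H3K27ac promoter peak was present at 13 of 13 beta cell marker genes, at 0 of 3 fibroblast and 0 of 2 endothelial ones, and at 1 of 4 acinar, 1 of 3 duct, 1 of 3 immune, 2 of 3 alpha cell and 2 of 2 delta cell ones.

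Pooled over the 9 genes, acetylation leaned towards the senescent state, mostly by less than the 1.5-fold needed for a call, but not at every gene. Gained peaks lay at an internal start of PIK3R1, at a non-coding RNA start beyond FOXO1, in introns of FOXO1 and IGF1R and far upstream of IGF1R and IRS2, and the FOXO1 promoter rose by 0.50 on the log2 scale. Of the 124 peaks, 80 had a fold change above 0, where 26040 of 51489 did in the table. The median of the 124 was 0.12 against 0.0075 over the table. IGF1R gave 33 of the 80, and the median was below 0 at IRS2 (-0.053) and FOXO6 (-0.098). By the call rule for H3K27ac, more than 1.5-fold with the adjusted p below 0.05, 8 peaks were gained and 4 were lost. That is 6.45% gained, where 9.47% of all peaks were gained, and 3.23% lost, where 13.1% of all were lost, so neither share was above the background.

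By adjusted p alone 22 of the 124 peaks were higher (17.7%, against 18.9% of the table) and 7 were lower (5.65%, against 20.3%). The 124 were weaker than the table's peaks, with a median of 61.9 against 119 counts. Among the 74 with at least 50 counts, 28.4% were higher and 8.11% lower, against 24.5% and 25.2% of all such peaks. By the call rule 9.46% of the 74 were gained and 4.05% lost, against 10.7% and 14.8%. Gained peaks lay at IGF1R (4), FOXO1 (2), IRS2 (1) and PIK3R1 (1), and lost ones at IRS2 (3) and FOXO6 (1). INSR, IRS1, FOXO3 and AKT2 had no called peak. When start sites of all gene types competed for the peaks, 5 gained and 1 lost peak stayed with the 9 genes. The gained peaks lying outside the genes FOXO1, IGF1R and IRS2, 1 each, and the 3 lost at IRS2 then went to other genes, so their assignment depends on that choice. None of the 12 calls held when the test asked for a change of more than 1.5-fold rather than any change, with adjusted p-values of 0.387 or more. The share of all calls that held in that stricter test is not given here, so this does not set the 9 genes apart.

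**Figure D1:**
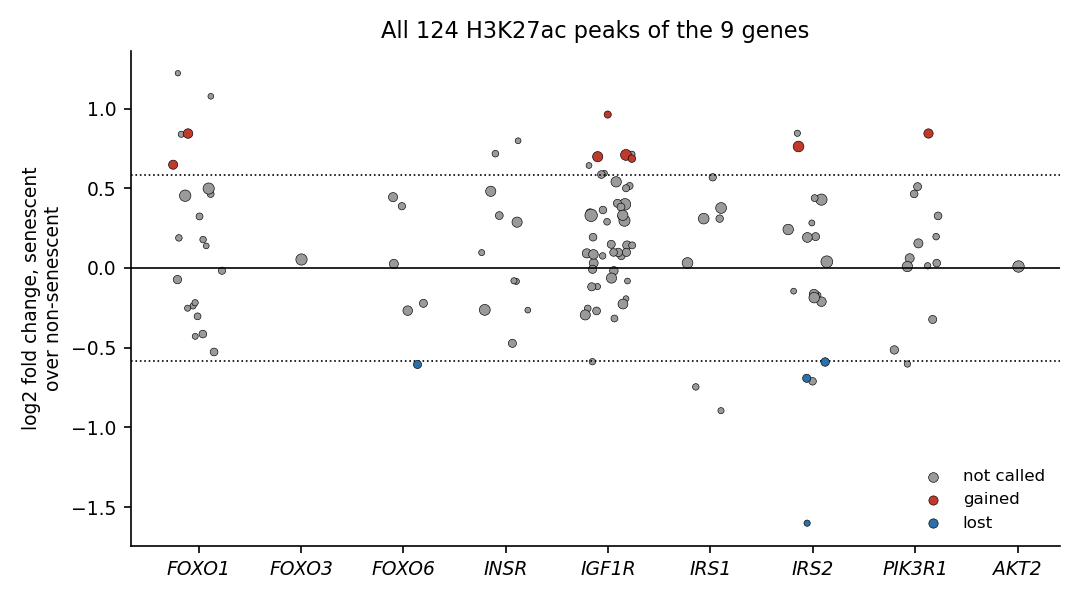
Log2 fold change of H3K27ac, senescent over non-senescent, at each of the 124 peaks by gene. Larger points have higher mean counts, dotted lines mark 1.5-fold, red peaks were gained and blue ones lost. The 8 gained peaks sit at FOXO1, IGF1R, IRS2 and PIK3R1, and the strong peaks of AKT2 and FOXO3 sit near 0.

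At the promoters, 4 of the 9 genes had more H3K27ac in senescent cells by adjusted p, where 24.6% of 13059 genes did when each gene was represented by its strongest promoter peak. They were FOXO1, IRS1, IGF1R and INSR, with FOXO1 the highest. None passed 1.5-fold, against 3.15% of all genes gained and 8.94% lost, and none was lower by adjusted p, against 19.3% of all genes. The median over the 9 promoters was 0.059, and over all genes 0.038.

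The FOXO1 promoter peak (chr13:40661706-40668167, hg38), which covers the first exon and its 5′ UTR, had a mean of 1911 normalized counts. It rose by 0.50 ± 0.062 (SE, 95% interval 0.38 to 0.62, DESeq2 adjusted p = 1.64e-14), higher than 94.8% of promoters. The promoters of IRS1 (0.31 ± 0.075, adjusted p = 0.000191), IGF1R (0.30 ± 0.069, adjusted p = 1.00e-04) and INSR (0.29 ± 0.093, adjusted p = 0.00733) rose by similar amounts, and their intervals overlap one another.

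The other 5 promoters had fold changes smaller than their SE. The values were 0.059 ± 0.071 for FOXO3 (95% interval -0.080 to 0.20, adjusted p = 0.541), 0.039 ± 0.066 for IRS2, 0.026 ± 0.157 for FOXO6, 0.012 ± 0.060 for AKT2 and 0.0091 ± 0.083 for PIK3R1. The interval of FOXO3 lies wholly below that of FOXO1. Removing the trend of fold change with GC content moved FOXO3, whose peak is 66.1% GC, to 0.24 with an adjusted p of 0.00237, so its standing depends on that choice.

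**Figure D2:**
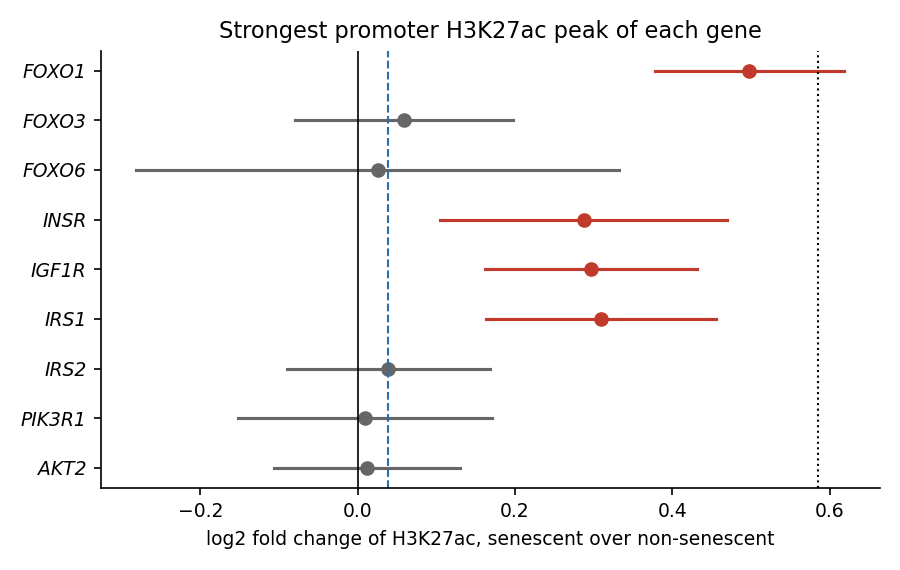
Log2 fold change of the strongest promoter H3K27ac peak of each gene with its 95% interval, red where the adjusted p was under 0.05. The blue dashed line is the median of all genes (0.038) and the dotted line is 1.5-fold. The interval of FOXO1, from 0.38 to 0.62, lies above those of FOXO3, FOXO6, IRS2, PIK3R1 and AKT2.

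In level, per kb of peak, AKT2 was highest at 476 normalized counts, followed by FOXO3 at 398, FOXO1 at 296, IGF1R at 271, IRS1 and IRS2 at 261, PIK3R1 at 217, INSR at 201 and FOXO6 at 91.1. AKT2, the AKT form with the main role in insulin-controlled metabolism, stood above 96.7% of gene promoters and FOXO6 above 16.9%. Without values per library the order of neighbours could not be tested. AKT2 and FOXO3, with the highest promoters, had no other H3K27ac peak assigned to them, although the FOXO3 gene is 124940 bp long.

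The FOXO1 promoter, where H3K27ac was higher, is shown beside the main start of PIK3R1, where the test was not passed, and an internal PIK3R1 start, whose peak was gained, because the 3 differ in CpG content. Each line is the 250 bases before the start, 5′ to 3′, with CpG dinucleotides in capitals. FOXO1 and the main PIK3R1 start are from the RefSeq promoters (GRCh38.p14), at chr13:40666642-40666891 (minus strand) and chr5:68215506-68215755 (plus strand). The internal start is a GENCODE start at position 68239898, read from hg38 at chr5:68239648-68239897 (plus strand).
FOXO1 promoter: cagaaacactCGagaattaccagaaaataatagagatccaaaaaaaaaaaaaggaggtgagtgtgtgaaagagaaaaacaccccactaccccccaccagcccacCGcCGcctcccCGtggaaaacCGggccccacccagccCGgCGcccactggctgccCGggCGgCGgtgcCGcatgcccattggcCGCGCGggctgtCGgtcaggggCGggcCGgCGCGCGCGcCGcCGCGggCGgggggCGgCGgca
PIK3R1 main promoter: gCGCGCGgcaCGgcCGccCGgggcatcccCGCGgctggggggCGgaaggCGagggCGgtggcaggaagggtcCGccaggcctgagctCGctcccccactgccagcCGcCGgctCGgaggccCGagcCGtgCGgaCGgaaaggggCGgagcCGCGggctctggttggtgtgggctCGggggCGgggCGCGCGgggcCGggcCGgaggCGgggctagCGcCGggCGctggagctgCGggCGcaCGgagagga
PIK3R1 internal start: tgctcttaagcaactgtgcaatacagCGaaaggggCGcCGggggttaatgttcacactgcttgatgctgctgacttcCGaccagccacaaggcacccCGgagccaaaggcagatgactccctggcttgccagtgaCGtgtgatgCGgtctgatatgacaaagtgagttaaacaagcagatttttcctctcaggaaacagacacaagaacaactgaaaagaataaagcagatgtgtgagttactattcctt
They hold 27, 37 and 7 CpG dinucleotides at 67.2%, 81.6% and 48.4% GC. The median over the 35116 windows of the RefSeq table was 11 at 58% GC.

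Beyond the promoter, FOXO1 had 20 more H3K27ac peaks, of which 2 were gained and 1 very wide one rose without reaching 1.5-fold. The gained peak at chr13:40533410-40537903 lies over a start site of the long non-coding RNA gene LINC00598, 131 kb from the FOXO1 start and past the end of the gene. It went from 225 to 404 normalized counts, a change of 0.84 ± 0.13 (adjusted p = 8.25e-10). The other, at chr13:40612840-40616152, lies in a FOXO1 intron 52.1 kb from the start and went from 163 to 256 counts (0.65 ± 0.14, adjusted p = 4.97e-05).

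The wide peak, chosen after its values were seen, spans 15084 bp at chr13:40334649-40349732, 324 kb from the start, and was the strongest of the locus at 2509 counts. It rose by 0.45 ± 0.062 (adjusted p = 6.54e-12). Like the gained peak past the gene's end, it lies within LINC00598, a start of which is nearer than that of FOXO1. Its assignment to FOXO1 therefore rests on counting protein-coding starts alone. Of the 7 FOXO1 peaks with at least 50 counts, 4 were higher by adjusted p and 0 were lower, where 24.5% of all peaks of that strength were higher and 25.2% lower. None of the 14 weaker ones passed the test. Summed over the 21 peaks, 42.1 kb in all, the group levels came to 4634 counts in non-senescent and 6331 in senescent cells. That is a ratio of 1.37, which rests mostly on the wide peak, with 45.8% of the counts, and on the promoter peak. Both the ratio and the 4 higher peaks, which include the 2 within LINC00598 named above, depend on that assignment.

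Such a ratio of sums carries no error of its own, so the genes are not ranked by it. Over the whole table it was 1.02. It was 1.25 at IGF1R, 1.18 at IRS1, 1.12 at IRS2, 1.10 at PIK3R1, 1.04 at FOXO3, 1.03 at INSR, 1.01 at AKT2 and 0.972 at FOXO6. The strongest single peak held between 33.9% (IRS1) and 47.7% (INSR) of the counts at the loci with more than 1 peak.

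IGF1R, the receptor for IGF-1 and IGF-2, had the most peaks, 46, of which 41 lay in its 315992-bp gene body. The clearest gain was an intronic peak at chr15:98821856-98830805, 178 kb into the gene, which went from 1029 to 1683 counts (0.71 ± 0.072, adjusted p = 5.80e-21). A gained peak 326 kb upstream, at chr15:98320367-98324851, overlaps an exon of the long non-coding RNA LINC02351 and went from 483 to 784 counts (0.70 ± 0.089, adjusted p = 1.20e-13). The other 2 gained peaks are intronic and weak, with means of 38.3 and 52.1 counts and adjusted p-values of 0.0247 and 0.0463. The latter call was lost when the GC trend was removed (adjusted p = 0.0558).

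IGF1R also held the strongest peak of the 9 genes, an intronic domain of 20099 bp at chr15:98783470-98803568 with 9037 counts, above 99.9% of all peaks. It rose by 0.33 ± 0.062 (adjusted p = 1.13e-06). A domain of 10358 bp at chr15:98325689-98336046 rose by 0.40 ± 0.068 (adjusted p = 5.37e-08). It lies outside the gene, beside the gained upstream peak, and was assigned to IGF1R as the nearest protein-coding start. Both domains are in neither enhancer list. Farther into the gene than the intronic domain, chr15:98864912-98867839 was lower (-0.29 ± 0.10, adjusted p = 0.0147). It was the 1 IGF1R peak lower by adjusted p, against 9 that were higher. These 3 peaks were chosen after their values were seen.

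INSR, the insulin receptor, had 11 peaks and no call, and its 2 strong peaks inside the gene moved in opposite directions. A peak of 8839 bp at chr19:7176567-7185405, which includes a coding exon, changed by -0.26 ± 0.067 (adjusted p = 0.000419). An intronic peak nearer to the start, chr19:7196537-7201453, changed by 0.48 ± 0.088 (adjusted p = 4.34e-07). Their group levels went from 1485 to 1237 counts and from 508 to 709 counts. Both were chosen after their values were seen.

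Both adaptors had strong promoter and distal peaks. IRS1, which links the receptors to PI3K, had no called H3K27ac peak among 7. Its intronic enhancer at chr2:226790422-226793614 did not pass (0.031 ± 0.074, adjusted p = 0.768), while its promoter and an intergenic peak 238 kb away (0.38 ± 0.074, adjusted p = 2.62e-06) were higher. The intronic and the intergenic peak were chosen after their values were seen.

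IRS2, the adaptor with the larger role in beta cell mass and survival, had 1 gained and 3 lost peaks among 18. The gained one, intergenic at chr13:109834845-109838469 and 50.1 kb upstream of the start, went from 794 to 1347 counts (0.76 ± 0.089, adjusted p = 3.10e-16). The 3 lost peaks all lay on the other side of the gene, past its 3′ end, at lower levels than the gained one. The one at chr13:109720494-109720993 had under 50 counts. The nearest start of any gene type to each was that of a long non-coding RNA, LINC00676 or ENSG00000285534, at 7.54 to 135 kb. At chr13:109743193-109744643 the level went from 106 to 65.9 counts (-0.69 ± 0.23, adjusted p = 0.00970). At chr13:109592200-109594069 it went from 142 to 94.4 counts (-0.59 ± 0.19, adjusted p = 0.00693), and at chr13:109720494-109720993 from 30.2 to 9.95 counts (-1.60 ± 0.47, adjusted p = 0.00259).

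These 3 IRS2 peaks lie 42.7 to 193 kb from the start. The IRS2 promoter peak itself is 14944 bp wide with 3900 counts, and its 95% interval ran from -0.090 to 0.17.

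**Figure D3:**
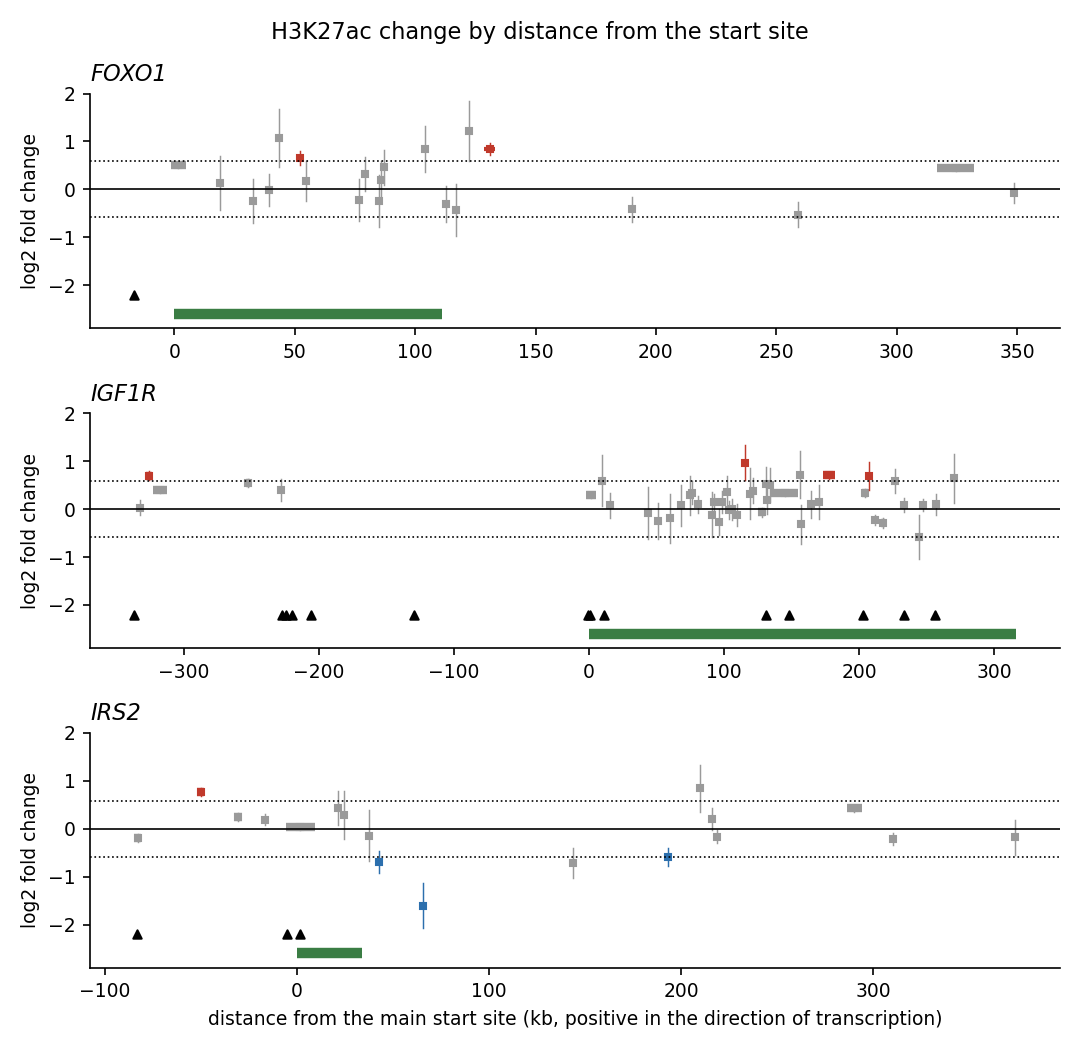
Log2 fold change of each H3K27ac peak (bar length is peak width, vertical lines are ± 1 SE) against distance from the main start site for FOXO1, IGF1R and IRS2. Red is gained, blue is lost, dotted lines are 1.5-fold, triangles are CTCF peaks with at least 50 counts and the green bar is the gene. The lost IRS2 peaks lie past the gene's end and the gained one upstream, and FOXO1 has no triangle among its peaks.

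PIK3R1 encodes the p85-alpha regulatory subunit of PI3K and shorter forms made from internal starts. Its main promoter did not pass the test, but a peak at an internal start, chr5:68238694-68240951, was gained 24.1 kb into the gene. It went from 176 to 317 counts (0.85 ± 0.14, adjusted p = 1.26e-08), the largest rise among the 9 genes' peaks with at least 50 counts. Its sequence is the internal start shown above, 35.4% GC over the whole peak. It overlaps no exon of the main transcript.

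A promoter-class peak between the main and the gained start, chr5:68225768-68227682, was lower by adjusted p (-0.51 ± 0.19, adjusted p = 0.0234) but under 1.5-fold. A peak over an internal start that RefSeq also lists, chr5:68287591-68289669, did not pass (0.15 ± 0.14, adjusted p = 0.408). These 2 were chosen after their values were seen.

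Among the FOXO factors other than FOXO1, calls were few. FOXO6, which is best known in brain, had the weakest promoter and 1 lost intronic peak, chr1:41376522-41378150, which went from 101 to 66.6 counts (-0.60 ± 0.23, adjusted p = 0.0279). A FOXO6 peak 19.7 kb upstream was higher (0.44 ± 0.14, adjusted p = 0.00733), a peak chosen after its value was seen, and FOXO3 had its promoter peak alone.

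The authors listed active enhancers for each state from overlapping H3K27ac and H3K4me1, so these lists are not independent of the acetylation values. The 9 genes had 32 enhancers in the senescent list and 39 in the non-senescent list. Of these 3 were in the senescent list alone and 9 in the non-senescent list alone. The shared part was 90.6% of the senescent list, against 79.5% for all genes, and 76.9% of the non-senescent list, against 70.6%. FOXO1 had 4 and 5 enhancers and all were shared, and FOXO3 and AKT2 had none in either list.

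Listed in senescent cells alone were 1 enhancer each of IGF1R, IRS2 and PIK3R1, and in none of these 3 did the H3K27ac peak pass the test. Of all 2623 peaks with enhancers of the senescent list alone, 57.8% were higher by adjusted p and 4.99% lower. Listed in non-senescent cells alone were 4 of IGF1R, 2 of IRS2 and 1 each of FOXO6, INSR and PIK3R1. The 2 IRS2 ones lie in lost peaks. None of the 4 at IGF1R lies in a called peak. Of all 4291 peaks with enhancers of the non-senescent list alone, 45.7% were lost and 2.07% gained, where 2 of 9 were lost and 0 gained at the 9 genes.

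Of the 8 gained peaks, 6 held enhancers of both lists, and in each of the 6 the enhancer was longer in senescent cells, as in 95.4% of all gained peaks with both lists. In the gained peak past the end of FOXO1 the listed enhancer was 917 bp long in non-senescent cells and 4494 bp, the whole peak, in senescent cells, a ratio of 4.90. In the FOXO1 intron it was 1155 and 3287 bp, a ratio of 2.85. The ratio was 2.04 and 1.58 at the 2 strong IGF1R gains, 1.68 at PIK3R1 and 1.31 at IRS2. Over all 1125 gained peaks with both lists the median ratio was 1.45, with 5% of them above 2.93, and over all 10242 peaks with both lists it was 1.04.

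**Figure D4:**
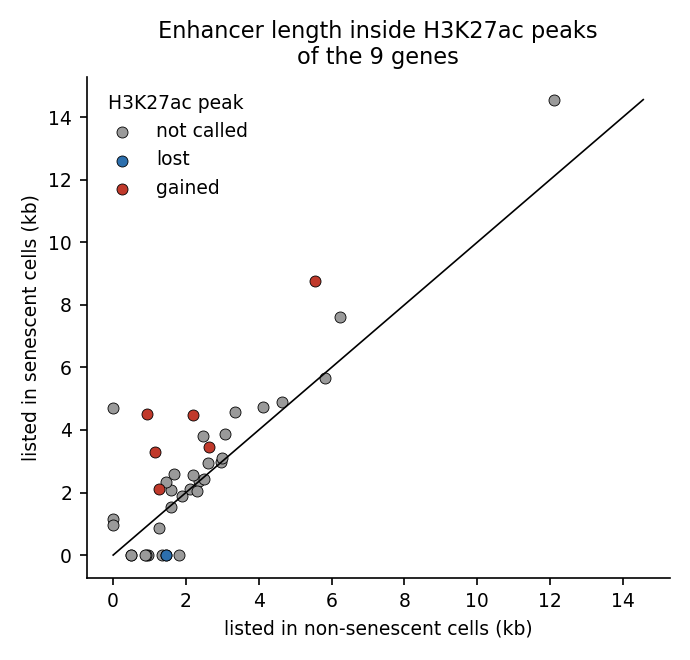
Length of listed enhancer inside each H3K27ac peak of the 9 genes in senescent against non-senescent cells, in kb, with the line of equal length. Red peaks were gained and blue ones lost. All 6 gained peaks with an enhancer lie above the line of equal length, as do 95.4% of such peaks over the whole table, and both lost ones lie at 0 in senescent cells.

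Of the 71 CTCF peaks of the 9 genes, 1 was gained and 0 were lost by the CTCF rule, more than 1.5-fold with the adjusted p below 0.2. In all peaks 2.29% were gained and 3.28% lost. The median was 0.061 against -0.012 over all CTCF peaks. No adjusted p was given for 17 of the 71, which were not called. Among these were 2 weak PIK3R1 peaks, with 7.55 and 15.0 counts, which would be called lost if p-values were adjusted over all peaks (adjusted p = 0.173 and adjusted p = 0.166).

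The gained CTCF peak lies upstream of IRS1, at chr2:226813023-226813968, 13.7 kb from the start and in an exon of the long non-coding RNA ENSG00000272622. It went from 65.2 to 105 counts (0.69 ± 0.23, adjusted p = 0.0661). With the trend of CTCF fold change with GC content removed it was 0.56 with an adjusted p of 0.252, so the call rests on that choice. Its best match to the CTCF core motif, in capitals within chr2:226813300-226813333 (hg38, plus strand), has 2 mismatches, and 69.1% of all CTCF peaks have a match at least as good.
IRS1 upstream CTCF site: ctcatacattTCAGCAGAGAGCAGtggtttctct

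The strongest promoter CTCF peaks of IGF1R, IRS2, INSR and FOXO6 had values below 0 that turned positive once the GC trend was removed. None of these passed the test either way. As deposited they were -0.22 ± 0.12 at IGF1R (458 counts, adjusted p = 0.310), -0.066 ± 0.13 at IRS2 (298 counts, adjusted p = 0.821), -0.12 ± 0.20 at INSR (173 counts, adjusted p = 0.767) and -0.026 ± 0.18 at FOXO6 (161 counts, adjusted p = 0.956). With the trend removed they were 0.060, 0.31, 0.085 and 0.33, with adjusted p-values from 0.271 to 0.915. The strongest promoter-class CTCF peak of PIK3R1 went the other way, from 0.22 ± 0.17 (200.1 counts, adjusted p = 0.486) to -0.0089 with the trend removed (adjusted p = 0.994). A weaker IGF1R promoter peak, over an exon of the gene at chr15:98649008-98650244, was at -0.42 ± 0.21 (112 counts, adjusted p = 0.272). That peak was chosen after its value was seen, and its value with the trend removed is not given. At IRS1 the peak over the start, chosen after its value was seen, was at -0.26 ± 0.14 (339 counts, adjusted p = 0.299). The strongest promoter-class peak of IRS1, next to it, had the opposite sign (367 counts, 0.36 ± 0.16, adjusted p = 0.193). That is under the limit of 0.2 but short of 1.5-fold, and with the trend removed it was 0.13 (adjusted p = 0.813). The strongest promoter-class peaks of FOXO1 and AKT2 were weak, at 8.27 and 11.8 counts, with no adjusted p. FOXO3 had no CTCF peak at its promoter. Over the 13 promoter CTCF peaks the median was -0.12, against -0.17 over all promoter CTCF peaks of the table. The rank correlation of CTCF fold change with GC content over all 51457 peaks, which come from the same libraries, was -0.353.

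FOXO1 lay in a long stretch without CTCF peaks of at least 50 counts, a limit somewhat below the CTCF median of 58.6. Between the nearest CTCF peaks of at least 50 counts on either side of its start, at chr13:40068854-40069923 and chr13:40682553-40683884, lay 614 kb. All 21 FOXO1 H3K27ac peaks lay inside, with FOXO1 as the 1 protein-coding gene that starts there. The same span had a median of 94.3 kb over 19649 genes, and 662 genes had a wider one. Both bounding CTCF peaks had positive fold changes below 1.5-fold (0.47 ± 0.21, adjusted p = 0.181, and 0.47 ± 0.22, adjusted p = 0.213). Weaker CTCF peaks lay inside the stretch, and with CTCF peaks of any strength counted the span at the FOXO1 start was 16.8 kb.

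At IGF1R, by contrast, 6 CTCF peaks of at least 50 counts lay between the gained upstream peak and the start, and 4 between the strong intronic gain and the start. For the gained peaks of IRS2 and PIK3R1 the numbers were 1 and 0. The CTCF spans at the starts of IGF1R, IRS2 and IRS1 were 1.94, 6.76 and 8.31 kb. At PIK3R1, FOXO6 and AKT2 they were 37.8, 55.4 and 83.3 kb, and at INSR and FOXO3 146 and 240 kb. None of the CTCF peaks between a gained H3K27ac peak and its gene's start was called, where 5.58% of all CTCF peaks were. So few peaks at so low a share do not show that CTCF was unchanged there.

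Rb is the retinoblastoma protein, which represses cell cycle genes. Of the 2435 regions with more Rb in senescent cells, 1 was assigned to the 9 genes, at chr2:226506440-226506654, 293 kb from the IRS1 start. The 9 genes are among 20007 protein-coding ones, and a count this low was not read as more or less Rb than elsewhere.

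The letters GTAAACA, the core of the DNA element that FOXO and other forkhead proteins share, were searched on both strands to show what the members' own elements hold. In the 250 bases before the start, 0 of the 16 RefSeq promoter windows of the 9 genes held a match, and 2.98% of all windows did. In the central 300 bases of H3K27ac peaks 8 of the 124 did (6.45%), against 5.98% of all peaks, 5.70% of gained and 7.55% of lost ones. Over whole peaks the rate was 1.99 matches per 10 kb at the 9 genes and 1.71 in the table. These shares were close to the background.

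Of the 8 gained peaks, 5 held 7 matches, 2.43 per 10 kb, and of the 4 lost ones 1 held 1 match. The matches in the gained peaks with the most counts are printed with 20 bases on each side and the match in capitals, as places where the letters stand in elements that rose, together with a match in the FOXO1 promoter peak 320 bases before the start. A match of these letters does not show that a factor binds. They lie at chr13:40666941-40666987 (minus strand), chr15:98826713-98826759 (minus), chr15:98321809-98321855 (plus), chr13:109836856-109836902 (plus), chr5:68239321-68239367 (minus) and chr5:68240549-68240595 (minus).
FOXO1 promoter peak: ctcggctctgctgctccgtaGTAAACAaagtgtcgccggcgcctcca
IGF1R intronic gain: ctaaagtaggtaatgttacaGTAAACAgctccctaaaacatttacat
IGF1R upstream gain, 1 of its 2 matches: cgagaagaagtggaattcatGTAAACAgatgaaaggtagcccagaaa
IRS2 upstream gain: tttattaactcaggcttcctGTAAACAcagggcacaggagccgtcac
PIK3R1 internal start, upstream of the start: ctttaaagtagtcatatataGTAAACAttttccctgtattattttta
PIK3R1 internal start, downstream of the start: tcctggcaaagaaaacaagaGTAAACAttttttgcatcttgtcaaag
The gained FOXO1 peaks at the intron and past the gene's end hold no match.

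The wider pathway was examined through lists of genes, each represented by its strongest promoter H3K27ac peak. Of 40 other genes of insulin and IGF signalling 36 had a promoter peak, with a median of 0.021. None was gained and 2 were lost, where 3.15% of all genes were gained and 8.94% lost. EIF4EBP1, which encodes the translation repressor 4E-BP1 that mTORC1 switches off, fell by 2.08 on the log2 scale (-2.08 ± 0.14, adjusted p = 6.27e-50), and SGK1, a kinase related to AKT, changed by -0.77 ± 0.31 (adjusted p = 0.0384) on a weak peak of 51.2 counts. By adjusted p alone 6 were higher and 5 lower, where 24.6% of all genes were higher and 19.3% lower.

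Of FOXO4 and 14 direct regulators of FOXO proteins, such as deacetylases and 14-3-3 proteins, all 15 had a promoter peak and none was called. The median was 0.12, with 4 higher and 2 lower by adjusted p, to be read against the same shares over all genes.

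Of 26 commonly cited FOXO targets 22 had a promoter peak, with a median of 0.094. The 2 gained were GADD45A (0.65 ± 0.090, adjusted p = 6.57e-12), a DNA damage and growth arrest gene, and SESN1 (0.60 ± 0.078, adjusted p = 4.99e-13), a stress-induced inhibitor of mTORC1. Both are also known p53 targets. The 3 lost were PPARGC1A, a coactivator of mitochondrial genes (-1.12 ± 0.24, adjusted p = 2.82e-05), KLF15 (-1.13 ± 0.42, adjusted p = 0.0220) and IGFBP1, an IGF-binding protein (-1.20 ± 0.47, adjusted p = 0.0312). These 3 had weak peaks of 71.8, 23.6 and 17.5 counts, whereas GADD45A and SESN1 had 1125 and 1760. By adjusted p alone 8 targets were higher and 5 lower. Over all genes 3.15% were gained, 8.94% lost, 24.6% higher and 19.3% lower.

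**Figure D5:**
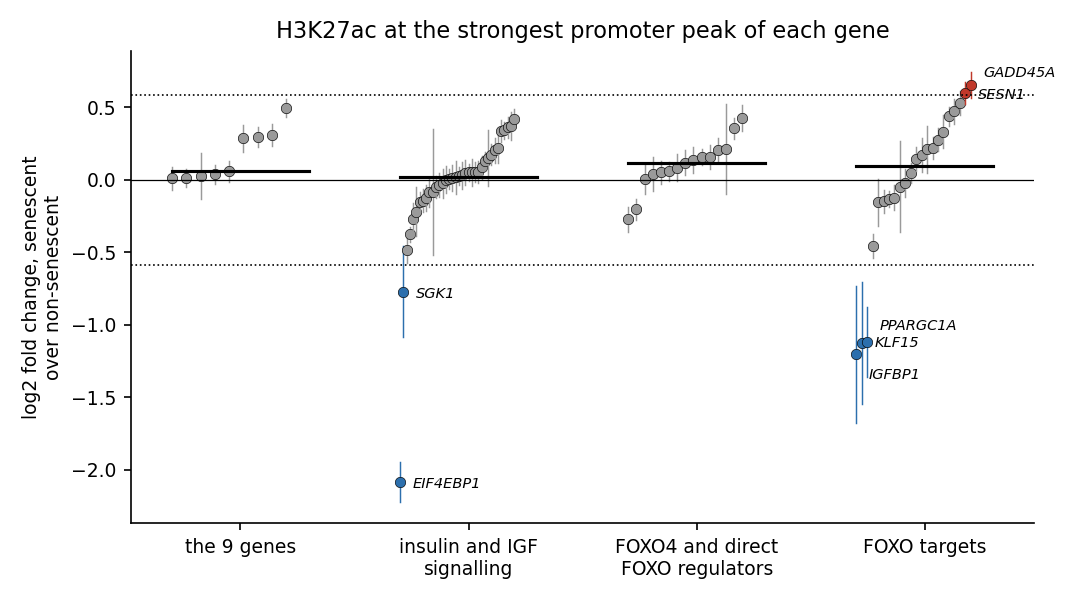
Log2 fold change (± 1 SE) of the strongest promoter H3K27ac peak of each gene in the 9 genes and in 3 lists, sorted within each. Black lines are medians, dotted lines 1.5-fold, red is gained and blue is lost, with called genes named. EIF4EBP1, at -2.08, lies farthest from 0, and no promoter of the 9 genes reached 1.5-fold.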

How the data were processed

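H3K27ac, H3K4me1, CTCF and Rb ChIP-seq libraries of EndoC-βH3 cells were trimmed with Trim Galore, aligned to hg38 with Bowtie2 (Bowtie in the submitters' notes) by the authors, who state duplicate removal for H3K27ac, H3K4me1 and Rb. Versions are not given in the sources used here. Peaks were called with HOMER (histone marks) or MACS2 (CTCF, and Rb in senescent over non-senescent cells). The labels give 1 mM 4-hydroxytamoxifen and the methods a micromolar dose. The deposited tables hold, for each peak, the authors' DESeq2 mean signal (normalized count), log2 fold change with SE, Wald score, p-value and adjusted p-value. These columns are the authors' own comparison and were the only measurements per peak, so no test was refitted and the authors' DESeq2 Wald test on 3 against 3 libraries was used as deposited. Its scaling centres the peaks, so a shift shared by all of them would not show.

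H3K27ac peaks were called at an adjusted p under 0.05, CTCF peaks under 0.2, both above 1.5-fold. Peaks without an adjusted p stayed uncalled. Peaks were assigned by GENCODE 44 starts (2 kb, gene body, then nearest within 400 kb), enhancers by an overlap of at least 1 bp. Intervals of 95% are the fold change ± 1.96 SE. The GC trend was removed as the median of 40 GC bins. Calculations used Python 3.11.15, pandas 2.3.3, numpy 2.4.6, scipy 1.17.1 and matplotlib 3.10.9. The removal of the GC trend and the test against 1.5-fold were tried on simulated fold changes, and the other steps were not. Named were every called peak, each gene's strongest promoter peak, the CTCF peaks that bound the FOXO1 span, the Rb region and called genes of the lists. Other named peaks are marked as chosen after their values were seen. The 9 genes and the lists were chosen with earlier results of these data known.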

Additional observations from a re-analysis of the deposited data

How the results depend on the processing

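No paired analysis was possible because the tables hold no values per library, and for the same reason no library could be left out and the precision rests on the deposited SE. Of 60 alternatives to the counts and medians, 41 left the value within its limits and 19 moved it. Requiring more than 2-fold left 0 gained and 1 lost H3K27ac peak and 0 gained CTCF peaks. Adjusted p alone gave 22 gained and 7 lost H3K27ac peaks and 2 gained CTCF peaks. Testing against a change of 1.5-fold left 0 gained and 0 lost H3K27ac peaks and 0 gained CTCF peaks. For neither of these stricter rules is the share over all peaks given here. When start sites of all gene types competed for peaks, 5 gained and 1 lost H3K27ac peaks and 0 gained CTCF peaks were assigned. Promoter and gene body peaks alone also held 5, 1 and 0. The CTCF gain was lost (0) with the GC trend removed and at an adjusted p under 0.05, and adjusting CTCF p-values over all peaks gave 2 lost. Requiring 50% of an enhancer to be covered gave 6 enhancers in senescent cells alone, not 3. The H3K27ac median stayed between 0.098 and 0.14, while the CTCF median ran from -0.015 to 0.066. The 13 called peaks had 66 alternatives, of which 35 kept the call, 31 lost it and 0 changed direction. The strongest promoter peaks that were not called had 93, of which 81 left them uncalled in the same direction and 5 called them. The other 7 turned direction with the GC trend removed. For H3K27ac these were at PIK3R1 (-0.0097) and AKT2 (-0.016). For CTCF they were at FOXO6 (0.33), INSR (0.085), IGF1R (0.060), IRS2 (0.31) and PIK3R1 (-0.0089). Depth limits the weak peaks most: 50 of the 124 H3K27ac peaks had under 50 counts.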
